A study of Homo sapiens with 7 samples.

Results

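PAX3-FOXO1 occupancy of chromatin was compared between Rh4 cells given a degrader of the tagged protein for 2 h, the earliest time sampled, and control cells. Of the 7 libraries in the series, the 4 compared here were crosslinked: 2 from cells given DMSO and 2 from cells given 500 nM dTAG47 for 2 h. Every one of the 5782 sites in the count table entered the comparison, on 24 chromosomes and each spanning 400 bases of hg19. Rh4 is an established rhabdomyosarcoma line, and the cells used carried a PAX3-FOXO1-FKBP fusion detected through its HA tag, so controls and treated cells share the tagged protein and differ in the compound alone, as far as the labels say. Cells bound to Concanavalin A beads were given anti-HA antibody and then pAG-MNase, which cuts the DNA beside the bound antibody (CUT&RUN).

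PAX3-FOXO1 arises from a chromosomal translocation in alveolar rhabdomyosarcoma and joins the paired domain and homeodomain of PAX3, which read DNA, to the activation domain of FOXO1. It is known for occupying distal enhancers together with myogenic factors and for keeping the tumour cells in an immature muscle state. dTAG47 binds the FKBP degron and recruits an E3 ubiquitin ligase, so the tagged protein is ubiquitinated and destroyed by the proteasome.

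The libraries differed in yield as much within a group as between groups. Control libraries A and B held 226067 and 380057 reads in sites, and treated libraries A and B held 228300 and 110440, where the letters only name libraries. Totals of the 2 h and DMSO libraries A were thus nearly equal. The groups overlapped, and on log2 totals an exact permutation test, two-sided, gave p = 0.667 (2 libraries against 2 allow no p below 1 in 3). Sequencing depth outside the sites is unknown, so a lower total may stem from fewer reads sequenced or from less HA signal, and these cannot be told apart. Separate cultures are not named in the labels, so p-values measure only how far these libraries differ from each other, possibly for technical reasons.

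Each 2 h library was set against each DMSO library on its own, to see whether the raw loss depended on the pair. In raw counts the median site barely moved from the DMSO library A to the 2 h library A (log2 ratio −0.05, middle 50% of sites from −0.41 to 0.28). The median log2 ratio was −0.79 for the 2 h library A against the DMSO library B, −1.18 for the 2 h library B against the DMSO library A and −1.94 for the 2 h library B against the DMSO library B. The share of sites with fewer reads after treatment was 51.8%, 92.8%, 96.4% and 97.2% in these 4 pairs, and the share at least 2-fold lower was 6.66%, 33.8%, 61.6% and 91.1%. A general raw loss was thus seen in 3 pairs and not in the first. For scale, the 2 DMSO libraries differed by a median log2 ratio of 0.77 (B against A) and the 2 h libraries by −1.12.

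**Figure D1:**
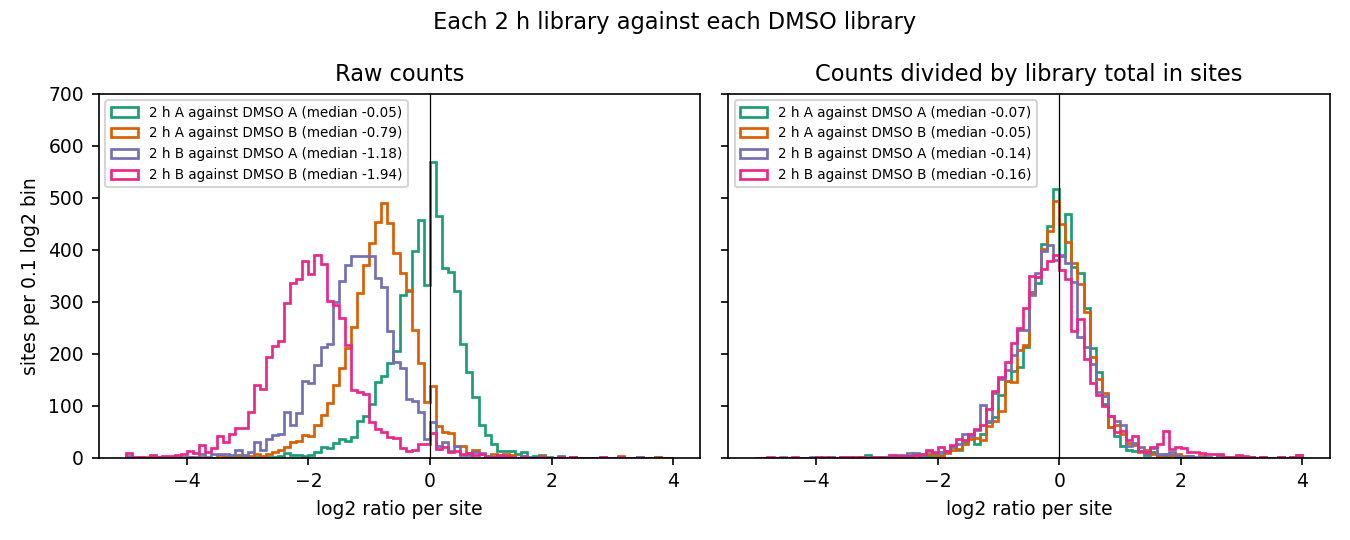
Distribution over 5782 sites of the log2 ratio of each 2 h library to each DMSO library (0.5 read added to each count), in raw counts at left and after dividing by each library's total in sites at right; the vertical axis counts sites per bin and values beyond the axis sit in the end bins. The raw distributions are spread from a median of −0.05 to −1.94, whereas the scaled ones lie on top of each other with medians from −0.16 to −0.05.

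Dividing by the total in sites, which removes a change shared by all sites, brought the pairs together. The median scaled log2 ratio was −0.07, −0.05, −0.14 and −0.16 in the same order of pairs. Sites at least 2-fold lower on this scale made up 6.73%, 6.11%, 10.1% and 10.1% of all sites, and sites at least 2-fold higher made up 1.76%, 3.08%, 3.68% and 6.61%. Between like libraries the tails were shorter on the lower side. From the DMSO library A to B, 2.70% of sites were at least 2-fold lower and 0.536% at least 2-fold higher, and from the 2 h library A to B the shares were 4.64% and 4.62%. The last of these lies above the share of higher sites in 3 of the 4 treated pairs, so gains of that size were no more frequent there than between the 2 h libraries.

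Tested on raw counts with no scaling, no single site passed. The edgeR quasi-likelihood test called 0 of 5615 sites in either direction (0%), although the fitted count was lower at 97.5% of them, with a median log2 change of −0.94. At an unadjusted p under 0.05 there were 478 sites, all lower, and the smallest adjusted p was 0.145. DESeq2 called 21 sites lower on the same scale and limma-voom 44, with 0 higher, so whether any site passes rests on the test. Without the 2 h library A, edgeR called 25 sites lower. By position alone, both treated libraries held fewer reads than either control at 2878 sites of 5782 (49.8%) and more reads at 34 (0.588%). After scaling, both 2 h libraries lay below both DMSO libraries at 32.4% of sites and above them at 15.4%.

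A small group of sites lost reads steeply even in the pair where the typical site did not. Of 4366 sites with at least 20 reads in both controls, 15 (0.344%) were at least 4-fold lower in raw reads in all 4 pairs. In the relative test described next, 14 of these also fell, beside 3.77% of all sites tested there. That test uses the same 4 libraries, so the choice favours such calls and they are no support. The site chr11:20249041-20249441 held 36 and 47 reads with DMSO and 3 and 4 reads at 2 h, a ratio of at least 8.11-fold in whichever pair is taken. At chr8:72515578-72515978 there were 44 and 73 control reads against 5 and 3 treated reads, at least 8.09-fold fewer. At chr5:128462166-128462566 the DMSO libraries were level at 28 reads each and the 2 h libraries held 4 and 5. At chr18:49104979-49105379 there were 27 and 40 control reads against 5 and 4 treated reads. The choice of these sites keeps both 2 h counts low, so their closeness in raw reads is no result, with totals that differed 2.07-fold. Per 100000 reads in sites, the 2 h libraries A and B held 1.31 and 3.62 at the chromosome 11 site and 2.19 and 2.72 at the chromosome 8 site. They held 1.75 and 4.53 at the chromosome 5 site and 2.19 and 3.62 at the chromosome 18 site. The adjusted p in the raw test (edgeR) was between 0.225 and 0.379 for the 10 sites with the steepest such falls, so none passed it. Also without scaling, limma-voom called 9 of these 10 sites, and DESeq2 called all 9 for which it gave an adjusted p. Whether these sites pass on raw counts thus rests on the test.

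The relative test asked which sites lost or kept more than the typical site, with TMM factors on the totals in sites. Of 5596 sites tested, 211 lost share (3.77%, called falls) and 118 gained it (2.11%, called rises) (edgeR quasi-likelihood test, adjusted p under 0.05). The 211 falls had a median relative log2 change of −1.24, and their pooled reads went from 4.45% and 4.89% of control libraries A and B to 1.96% and 1.80% of treated libraries A and B. These values describe sites chosen in the same libraries. Scaled on totals without TMM factors the split was 309 falls and 74 rises, and scaled on the 20 sites with the most reads there were 0 calls. The balance turned to 34 falls and 88 rises without the 2 h library A. Leaving out the 2 h library B gave 63 and 23, leaving out the DMSO library B gave 62 and 34, and leaving out the DMSO library A gave 215 and 177. DESeq2 called 9 falls and 12 rises, and limma-voom 151 and 160.

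The 10 largest relative falls left at most 10 reads in either 2 h library. At chr8:72515578-72515978, given above, the relative log2 change was −2.90 (SE 0.38, edgeR adjusted p = 5.93e-06), and at chr11:20249041-20249441 it was −2.60 (SE 0.45). The site chr6:151863861-151864261 went from 58 and 87 reads to 10 and 4, and chr2:105855521-105855921 from 35 and 56 to 6 and 3. These 4 sites lay at or under a log2 change of −2.37. At chr4:80074716-80075116 there were 54 and 104 control reads against 10 and 6 treated reads (log2 −2.33). At chr7:94925953-94926353 the counts were 35 and 53, then 5 and 4, and at chr7:103292378-103292778 they were 35 and 81, then 7 and 5. The DMSO and 2 h libraries did not overlap at any of these sites, which on scaled counts was a condition of the choice. The remaining members were weaker in DMSO or fell less: chrX:10801525-10801925 had 13 and 25 control reads against 4 and 0 treated reads, and chr10:126799796-126800196 had 19 and 33, then 4 and 2. At chr1:62729302-62729702 the counts were 44 and 85 in controls against 9 and 6 in treated libraries (log2 −2.14, SE 0.33). Without the 2 h library A, 7 of these 10 sites no longer passed, and DESeq2 kept the call at 3 of the 8 for which it gave an adjusted p.

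**Figure D2:**
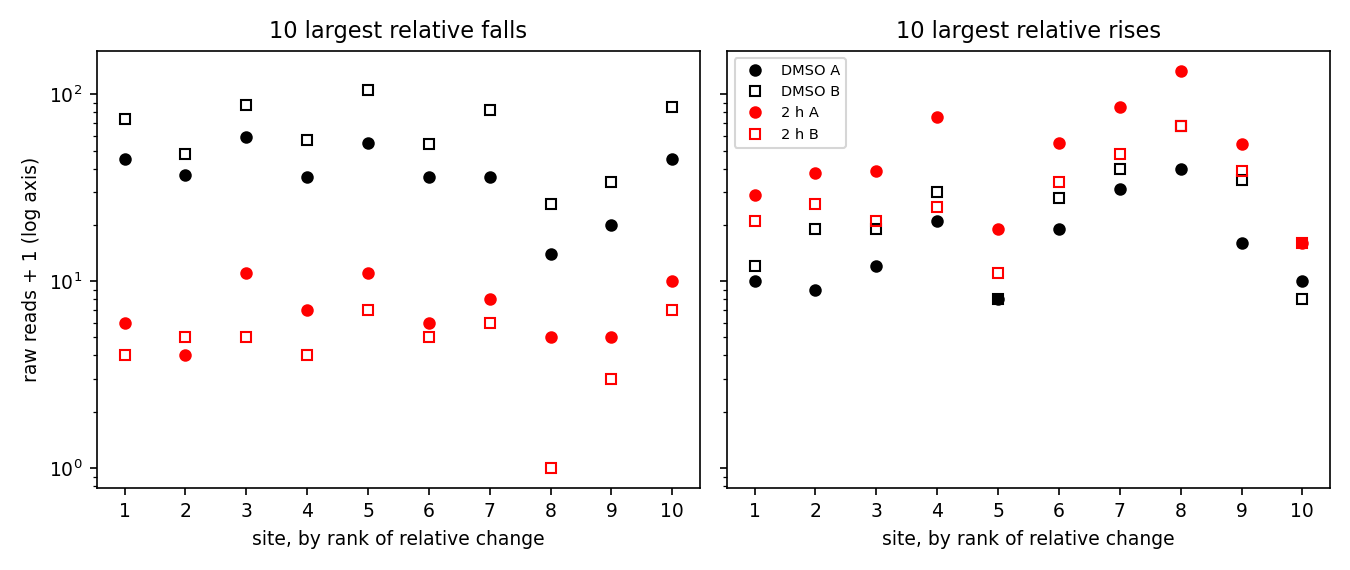
Raw reads (plus 1, log axis) in the 4 libraries at the 10 largest relative falls (left) and the 10 largest relative rises (right), each site at its rank; black marks DMSO, red marks 2 h, filled circles library A and open squares library B. At the falls both red marks lie below both black marks, whereas at 2 of the 10 rises the treated and control libraries overlap or tie. Sites were chosen for 1 direction in all 4 pairs of libraries on scaled counts.

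Whether the loss of share at single sites recurs between libraries was examined by choosing sites in one 2 h and one DMSO library and reading them in the other 2, which the choice did not use. Of 354 sites at least 2-fold lower on scaled counts in the 2 h library A against the DMSO library A, 282 (79.7%) were also lower in the 2 h library B against the DMSO library B, where 61.7% of all tested sites were lower. Their median scaled log2 ratio there was −0.75 against −0.18 over all tested sites, and 40.1% were again at least 2-fold lower against 10.0% of all. Pooled, they held 18114 reads in the DMSO library B and 2787 in the 2 h library B, or 4766 and 2524 per 100000 reads in sites. Choosing 561 sites in the B libraries and reading the A libraries gave a median of −0.61 against −0.07 over all sites.

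Lower values recurred in the crossed choice too. Of 330 sites chosen in the 2 h library A against the DMSO library B, 305 (92.4%) were lower in the 2 h library B against the DMSO library A, with a median of −0.90 against −0.14 over all sites. Of 555 sites chosen in the 2 h library B against the DMSO library A, 448 (80.7%) were lower in the remaining pair, with a median of −0.59 against −0.06. Across all 5596 tested sites, the scaled ratios of pairs without a shared library had a Pearson r of 0.31 (A with A against B with B) and 0.47 (crossed), as a description over sites that share libraries and depth. Gains recurred less evenly: 289 sites at least 2-fold higher in the B libraries had a median of −0.01 in the A libraries, whereas 120 sites chosen in the 2 h library A against the DMSO library B had a median of 0.75 in the remaining pair. The 76 sites chosen in the A libraries had a median of 0.53 in the B libraries, against −0.18 over all sites. The 141 sites chosen in the 2 h library B against the DMSO library A had a median of 0.60 in the remaining pair, against −0.06.

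**Figure D3:**
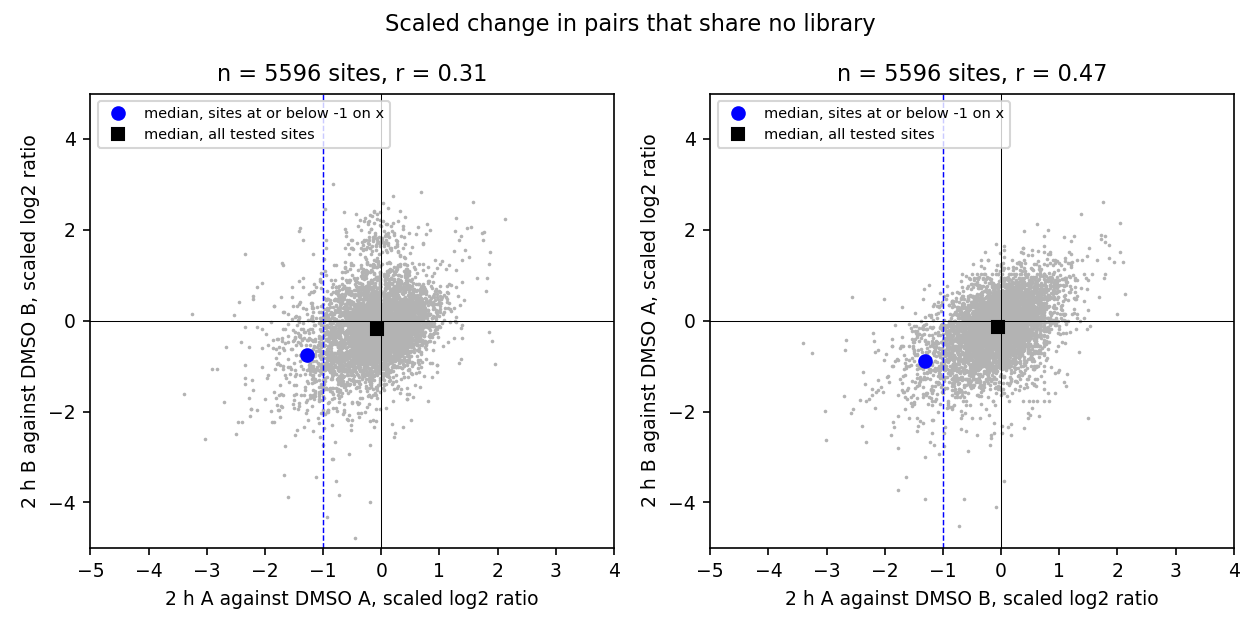
Scaled log2 ratio of one 2 h library to one DMSO library (horizontal) against that of the other 2 libraries (vertical) at 5596 tested sites, for both ways of forming pairs that share no library; the dashed line marks a ratio of −1. The blue circle, the median of sites at or left of that line, lies at −0.75 and −0.90 on the vertical axis, below the black square at −0.18 and −0.14 for all sites.

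The relative falls were spread over most chromosomes. They lay on 22 of 24 chromosomes and in 132 of the 305 windows of 10 Mb that held a tested site. The median relative log2 change was between −0.10 (chromosome 15) and 0.09 (chromosome 19) on every chromosome but Y. The share of tested sites that fell ranged from 0 of 92 on chromosome 19 to 10 of 149 (6.71%) on chromosome 17, beside the 3.77% over all sites. Chromosome 17 had more rises than falls, 13 of 149 (8.72%), beside 2.11% over all sites. Chromosome 4 had 19 falls among 348 sites (5.46%), chromosome 6 had 17 among 317 (5.36%), chromosome 11 had 12 among 232 (5.17%) and chromosome 20 had 3 among 189 (1.59%). These shares rest on few sites each, and the differences between chromosomes were not tested. Of the 42 falls with another tested site within 12.5 kb, 6 (14.3%) had another fall there, against 40 of 928 (4.31%) among sites that did not fall. Within 100 kb the shares were 19 of 128 (14.8%) and 195 of 3086 (6.32%), and within 1 Mb they were 48 of 205 (23.4%) and 1130 of 5172 (21.8%). Falls thus had another fall nearby more often than other sites did at the shorter distances, on few sites and without a test. Falls near each other were each counted, so such pairs enter from both sides.

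**Figure D4:**
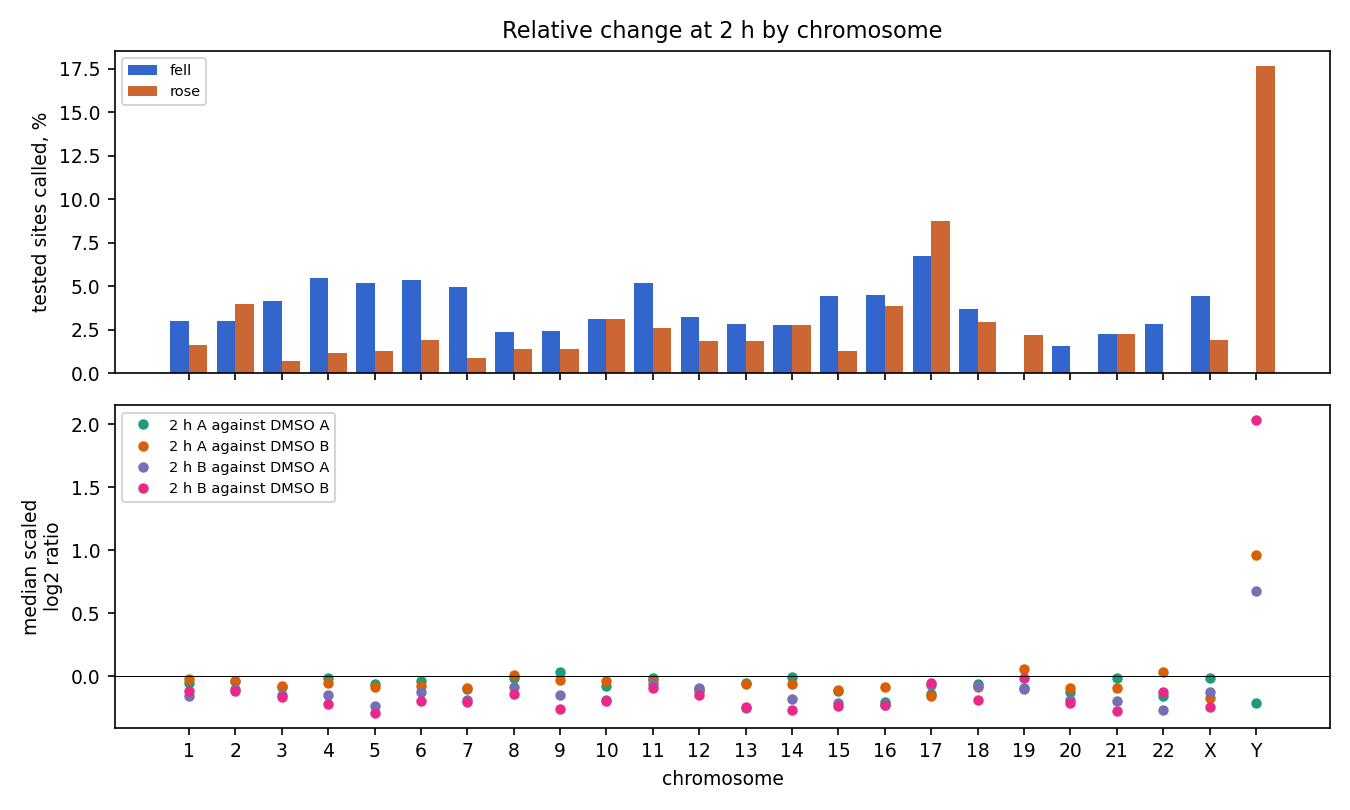
Upper panel: percent of tested sites on each chromosome that fell (blue) or rose (orange) in the relative test; lower panel: median scaled log2 ratio per chromosome in each of the 4 pairs of libraries. On every chromosome but Y the medians in the 4 pairs lie between −0.29 (chromosome 5) and 0.06 (chromosome 19). Chromosome Y, with 17 tested sites, has medians from −0.21 to 2.03 depending on the pair.

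In 3 of the windows of 10 Mb at least 5 sites fell, and these windows were picked out after their values were seen. From 20 to 30 Mb on chromosome 11, 5 of 30 tested sites fell, and the window as a whole went from 0.529% and 0.533% of the DMSO libraries to 0.375% and 0.322% of the 2 h libraries. Of the 5 falls, 3 lie close together and the others at chr11:20791930-20792330 (45 and 58 reads, then 15 and 7) and chr11:24946700-24947100 (28 and 57, then 7 and 11). Beside chr11:20249041-20249441, the site chr11:20269589-20269989 had 103 and 182 control reads against 35 and 25 treated reads (relative log2 −1.26, edgeR adjusted p = 0.000991). The site chr11:20297944-20298344 had 128 and 238, then 73 and 31 (log2 −0.86, adjusted p = 0.0206), and chr11:20243136-20243536 had 82 and 132, then 54 and 18, a change that did not pass (log2 −0.65, adjusted p = 0.0818). In raw reads the 2 h library B lay lowest at these 4 sites except at the most depleted one. That library also held the fewest reads in all, so its lower raw counts here are no result.

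On chromosome 12 the window from 60 to 70 Mb held 6 falls among 51 tested sites, but its median site did not move (relative log2 0.01). The strongest was chr12:67967440-67967840, with 50 and 84 control reads against 10 and 7 treated reads (log2 −2.02, SE 0.32). At chr12:66998059-66998459 there were 83 and 169 control reads against 23 and 16 treated reads (log2 −1.70, SE 0.26, edgeR adjusted p = 2.58e-05). At chr12:64613840-64614240 the counts were 29 and 54, then 6 and 5. On chromosome 17, 5 of 24 tested sites between 50 and 60 Mb fell, each by a relative log2 change of −1.24 to −0.89, among them chr17:59402678-59403078 with 43 and 82 control reads against 15 and 12 treated reads. A further 1 site of that window rose, and its median tested site was at a relative log2 change of −0.17.

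Most of the sites nearest to the 10 largest falls had a relative change below 0, but only 1 passed the test. At chr4:80074716-80075116 the nearest site, chr4:80076451-80076851, lies 1335 bases away and fell too, from 100 and 172 reads to 30 and 11 (relative log2 −1.79, SE 0.25). By contrast, chr7:94933099-94933499, 6746 bases from the fall at chr7:94925953-94926353, had 83 and 147 control reads against 70 and 43 treated reads (log2 −0.04, SE 0.23, edgeR adjusted p = 0.953). At chr8:72474943-72475343, 40235 bases from the largest fall, there were 24 and 51 control reads against 35 and 16 treated reads (log2 0.39, SE 0.27, adjusted p = 0.457). All 10 nearest sites were tested, and 8 had a relative log2 change below 0, against 49.5% of all tested sites. The 8 include chr7:94933099-94933499, at −0.04. Of the 10, 1 fell past the test and 0 rose, beside 3.77% and 2.11% over all sites.

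Over all sites, neighbours of depleted sites were read in the libraries not used to find the depletion. Around the 354 sites at least 2-fold lower in the A libraries, the other sites within 12.5 kb had a median scaled log2 ratio of −0.37 in the B libraries (55 sites). It was −0.27 from 12.5 to 100 kb (225 sites), −0.19 from 100 kb to 1 Mb (1226 sites) and −0.13 beyond 1 Mb (3736 sites). In the crossed pairs, choosing in the 2 h library A against the DMSO library B, the medians were −0.37, −0.21, −0.17 and −0.09 over the same distances. The other 2 choices gave −0.11 and −0.22 within 12.5 kb and −0.01 and −0.00 beyond 1 Mb. In all 4 choices the median was lowest nearest to a depleted site. The share of neighbours at least 2-fold lower did not follow this order in every choice. Within 12.5 kb it was 9.09%, 5.26%, 8.70% and 2.60%, against 7.82%, 3.87%, 7.57% and 3.29% beyond 1 Mb, and the difference was not tested.

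The number of calls differed with the DMSO signal of a site. This signal was taken from the same DMSO libraries that enter the change, so the classes are not independent of it. With the tested sites split into 3 equal classes by DMSO signal, 9 of 1865 fell in the lowest class (0.483%), 74 of 1865 in the middle class (3.97%) and 128 of 1866 in the highest (6.86%). The share with a fitted relative change of at least 2-fold downward, which asks for no test, was 3.49%, 4.40% and 4.45%, so the calls increased far more across classes than the fitted changes did (median DMSO counts of 23.5, 39 and 76.5). Sites up to 10 kb from another fell at 4.03%, those from 10 to 100 kb at 4.01% and those over 100 kb at 3.44%, near the 3.77% over all sites. Median relative log2 changes in these distance classes were 0.08, 0.01 and −0.02.

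**Figure D5:**
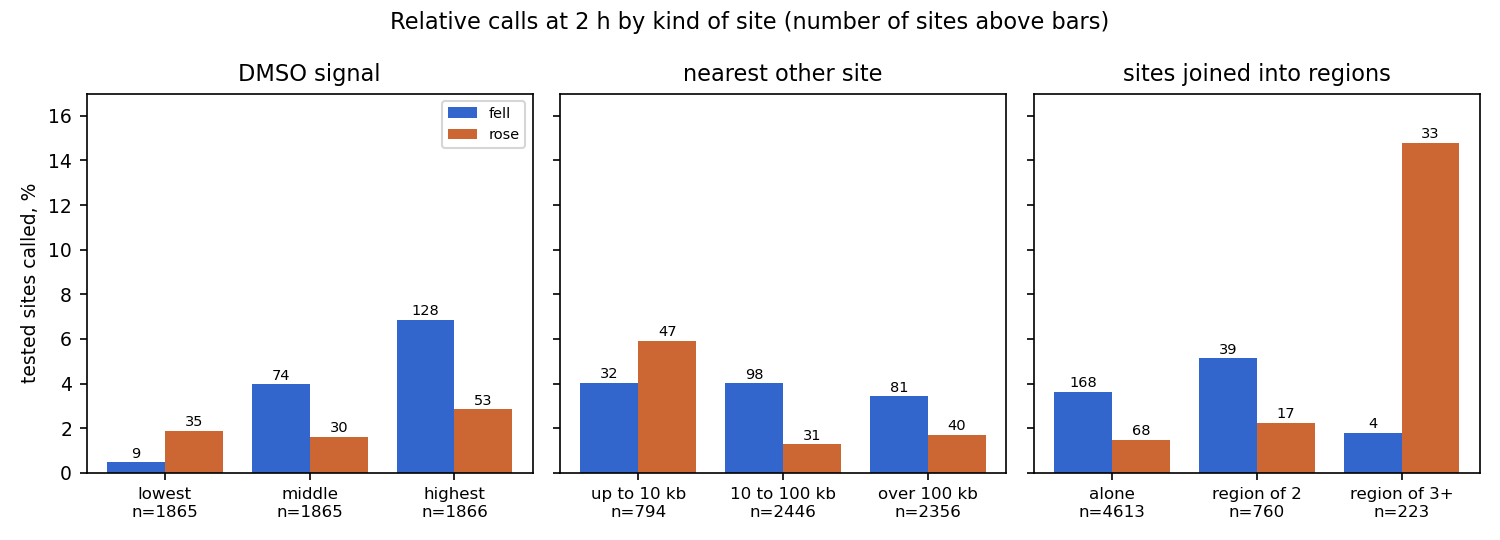
Percent of tested sites that fell (blue) or rose (orange) in the relative test, by class of DMSO signal (left), by distance to the nearest other site (middle) and by whether sites within 12.5 kb of each other form a region (right), with the number of sites above each bar and n tested sites below. Falls increase from 0.483% to 6.86% with DMSO signal and differ little with distance, while rises reach 14.8% in regions of 3 or more sites. The classes of DMSO signal use the same DMSO libraries as the test.

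None of the dense groups of sites lost share past the test. Sites no more than 12.5 kb apart were joined into regions, which gave 5189 regions, 63 of them with at least 3 sites, and reads were summed over each. Of 5066 regions tested, 220 fell (4.34%) and 140 rose (2.76%) (edgeR, adjusted p under 0.05). Among the 63 regions of 3 or more sites 0 fell and 8 rose, whereas 27 of 390 regions of 2 sites fell (6.92%) and 193 of 4613 sites standing alone (4.18%). The fitted relative change was below 0 in 24 of the 63 regions and above 0 in 39. Differences between these classes were not tested, nor was whether reads in the 63 regions come from bound PAX3-FOXO1. Without either DMSO library in turn, 0 regions were called, and the counts were 50 falls and 23 rises without the 2 h library B and 5 and 30 without the 2 h library A. The 223 tested sites in regions of 3 or more pooled to 19076 and 22731 control reads against 19324 and 13650 treated reads. Between controls, B over A in raw reads was thus 1.19 for them, against 1.75 at sites standing alone. As a share of the library they went from 8.44% in DMSO A to 5.98% in DMSO B, against 73.9% and 76.8% for sites standing alone, so on the scale of the relative test they differed more between the controls.

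Named here are the 5 largest rises among regions of 3 or more sites. These regions were not annotated, and whether their reads come from bound PAX3-FOXO1 was not tested. The largest was chr17:22252017-22261659, 4 sites with 82 and 83 control reads against 115 and 84 treated reads (relative log2 1.25, SE 0.22, edgeR adjusted p = 5.23e-05). At chr1:121351794-121362823 there were 46 and 41 control reads against 43 and 51 treated reads over 6 sites. At chr10:42527759-42534913 there were 176 and 156 control reads against 178 and 157 treated reads. The 15 sites of chrY:13449361-13489938 pooled to 315 and 254 control reads against 275 and 284 treated reads, and chr19:27731964-27738691 held 401 and 381, then 385 and 371. At the last 4 of these regions the control and treated libraries lay close in raw reads, although the 2 h library B held the fewest reads in all, while in the chromosome 17 region the 2 h library A stood higher. Without the DMSO library A, the DMSO library B or the 2 h library B, none of the 5 passed. On chromosome Y as a whole, where 3 of 17 tested sites rose and 0 fell, raw reads were 457 and 339 in controls against 390 and 385 in treated libraries.

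Only some single-site rises were gains in raw reads. Of the 118 sites that rose, 20 had more reads in both 2 h libraries than in both DMSO libraries and 98 did not. The pooled reads of the 118 were 6354 and 8175 in controls against 9650 and 6177 in treated libraries, and DMSO B over DMSO A came to 1.29 for them, against 1.85 for the 211 falls and 1.68 for all tested sites. The 20 sites with the most reads held 17745 and 17474 control reads against 17913 and 15013 treated reads, with a ratio between the controls of 0.985. In raw reads the sites that rose thus differed less between the controls than the typical site did. As a share of the library, the scale of the relative test, they differed more: they held 2.81% and 2.15% of DMSO libraries A and B, and the 20 sites 7.85% and 4.60%, whereas sites with no call held 92.3% and 92.6%. The part of this in the calls was not tested.

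At 8 of the 10 largest single-site rises, both 2 h libraries held more raw reads than both controls. Sites were not annotated, and whether the reads at these rises come from bound PAX3-FOXO1 was not tested. At chr13:110076342-110076742 there were 9 and 11 control reads against 28 and 20 treated reads (relative log2 2.20, SE 0.39, edgeR adjusted p = 0.000229). At chr2:49456688-49457088 the counts were 8 and 18, then 37 and 25 (log2 2.19, SE 0.32), and at chr3:96336818-96337218 they were 11 and 18, then 38 and 20. At chr10:101817097-101817497 there were 18 and 27 control reads against 54 and 33 treated reads, and at chr18:45379553-45379953 there were 15 and 34, then 53 and 38. At chr11:10529312-10529712, by contrast, the DMSO libraries held 20 and 29 reads and the 2 h libraries 75 and 24, so the groups overlapped in raw reads. At chr14:32953653-32954053 the counts were 39 and 67, then 133 and 67, a tie between the DMSO library B and the 2 h library B. Of the 10 sites, 8 had no other site within 12.5 kb. The site nearest to chr2:49456688-49457088, at chr2:49587173-49587573 and 130085 bases away, went the other way, from 53 and 90 reads to 26 and 9 (log2 −1.09, SE 0.26, edgeR adjusted p = 0.00932). The site nearest to chr17:22252017-22252417, at chr17:22253018-22253418 and 601 bases away, rose as well (log2 1.04, SE 0.28, adjusted p = 0.0221). These were the only calls among the 9 nearest sites tested, of which 5 were below 0. The adjusted p of the raw test (edgeR) was between 0.582 and 0.583 at all 10.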

How the data were processed

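The authors deposited 1 table of unnormalized read counts for each site and library. Build hg19 is named per the submitters' processing notes, with tools that included Trimmomatic 0.32, Bowtie2 and Genrich 0.6.1. The choice of sites and the handling of duplicate reads are not stated in the sources used here. Columns named DMSO were read as crosslinked, since only that control group has 2 samples. Coordinates are printed as in the file, whose counting from 0 or 1 is not stated. No hg19 genome or annotation was used here, so sites carry no gene names, sequences or motifs, and planned parts that need them were not run. The table's 6 count columns left 0 others aside.

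Sites were kept by filterByExpr (minimum count 10, minimum total 15), which left out 167 of 5782 for raw and 186 for relative testing. Counts were tested with edgeR 4.0.16 (R 4.3.3), quasi-likelihood test, Benjamini-Hochberg adjustment over all sites kept, threshold 0.05, on the 4 DMSO and 2 h libraries with 2 residual degrees of freedom. The 4 h columns stayed out because they agree within sampling noise (a chi-square of 1.01 per degree of freedom, p = 0.284, against 2.08 between DMSO and 1.96 between 2 h libraries) and would shrink the spread. The raw fit gave all libraries 1 size; the relative fit used totals with TMM factors. A standard error is the log2 change over the square root of F. Library totals ran from 110440 to 380057 reads, and the median site held from 12 to 48, which limits single sites. Ratios of 2 libraries had 0.5 added to each count. Fits were tested on simulated data.

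The sites named are the 10 largest relative falls and the 10 largest rises with 1 direction in all 4 pairs, up to 10 sites at least 4-fold lower in raw counts in all 4 pairs with at least 20 reads in both DMSO libraries, and the 5 regions of at least 3 sites with the largest falls (0 passed) and rises. Windows, nearest neighbours of named sites and the spacing of falls were chosen after values were seen. Members, lists and tests were chosen with earlier results of these data known. Alternatives were limma-voom (limma 3.58.1), DESeq2 1.42.0, further scalings, filters, stitching distances, a replicate block and leaving out each library. Python 3.11.15 with scipy 1.17.1 gave the permutation test.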

Additional observations from a re-analysis of the deposited data

How the results depend on the processing

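Raw calls (0) became 73 with all 6 columns in the fit, 21 with DESeq2 and 44 with limma-voom, all lower; dropping any 1 library gave 0 to 25. Relative calls (329) became 21 with DESeq2, 0 scaled on the 20 highest sites and 77 scaled on the lowest 10% of sites, and ranged from 86 to 392 leaving out 1 library. Region calls (360) became 27 with DESeq2, 0 and 61 with the same scalings, and 205 when sites up to 50000 bases apart were joined, and ranged from 0 to 73 leaving out 1 library. The cause was not tested. Where 1 library was left in a group, its spread was taken from the other group. The median relative change of all sites was 0.00 with TMM, −0.10 scaled on totals and −0.87 scaled on the 20 highest sites. TMM factors and totals remove a change shared by most sites, so their medians cannot measure a shared loss. Scaling on the 20 highest sites takes these as unchanged, which was not tested, so the size of a shared loss is not known. The median scaled log2 ratio of the 2 h library B to the DMSO library B (−0.16) was −0.23 over the 4366 sites with at least 20 reads in both controls. None of the named sites or regions reversed under the alternatives run; they were chosen for large changes, so this is no support.

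A replicate block on column letters was also fitted, and calls were 0 raw, 248 relative and 270 over regions. The letters did not pair libraries: the A minus B differences of the DMSO and 2 h groups correlated at −0.198. With the letters crossed, a pairing added after seeing the data, calls were 3922 raw (3909 lower, 13 higher) and 711 relative (371 lower, 340 higher). This pairing joins the DMSO library B with the 2 h library A, in each group the library with more reads in sites. How far these totals enter the raw calls was not tested.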
